A study of Nothobranchius furzeri with 16 samples.

Results

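A module of 150 genes, whose adipose signal separated fasted from refed young killifish with the fasted fish higher, while fasted and refed old fish differed by no more than a small amount on average, was described gene by gene and fish by fish. The members were selected on the measured values of these same fish, from a table of 18606 fish genes. A gene had to have a mean of at least 50 normalized units over the 16 fish without being among the 50 most abundant, which left 14309 genes. Every young fasted fish had to exceed every young refed fish, as in 3742 genes (26.2% of the 14309), and the difference between fasted and refed old fish had to stay under 0.25 on the log2 scale in either direction, which 1765 of the 3742 genes did. The 150 of these with the largest difference in young fish are the members.

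The animals were males of the turquoise killifish (Nothobranchius furzeri, an annual African fish with a very short life), wild type and of the laboratory strain GRZ-AD, and the tissue was adipose. There were 4 groups of 4 fish: old fasted and old refed fish at 18 weeks, and young fasted and young refed fish at 7 weeks. Fasted fish had no food for 72 h, and refed fish went through the same fast and were then fed for 24 h, so no group was fed throughout. The fish were housed singly, and the libraries of a group are labelled as biological replicates.

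Adipose tissue stores triglyceride after a meal and releases fatty acids during a fast. Low insulin in the fast turns on lipolysis and genes for the use of stored fuel, and insulin after a meal turns them off again and turns on lipid synthesis. In ageing vertebrates the tissue is known to respond less sharply to insulin and to gather immune cells. A gene that is high in the fast and low after refeeding in young fish can therefore lose this contrast with age in more than one way, by staying high after a meal, by staying low in the fast or by settling between. The mean level of the old fish, on a given scale, places each gene among these cases.

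The table gives genes by Ensembl identifier alone, and 0 of these were found among the 38438 genes in the symbol table at hand. Members are therefore named by their rank in the module, from 1 for the largest difference in young fish to 150, and 4 of them by identifier. What these genes encode, and in which cells of the tissue they are expressed, is not analysed here. In whole tissue, fewer cells of one type and less RNA per cell cannot be told apart.

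The members were mostly of lower signal than the genes they were drawn from. Their mean over all fish ranged from 50.4 to 8366 units with a median of 136, against a median of 251 over the 14309 genes, and 59 of the 150 lay under 100 units. In old fish the difference between fasted and refed, on mean log2(value + 1), ran from -0.25 to 0.25 with a median of 0.08, and it was above 0 in 95 members and below 0 in 55. In young fish the same difference ran from 0.85 to 2.41 with a median of 0.99, which corresponds to a median of 1.99-fold. Over the 14309 genes the medians were -0.01 in old fish and 0.03 in young fish. These differences chose the members and were not tested.

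At the edges of the choice the values ran on smoothly. The member of rank 150 had a young difference of 0.8464 and the first gene past it 0.8458. The member closest to the limit in old fish, rank 83, had an old difference of -0.2497, and the nearest gene beyond the limit had -0.2536. A further 768 genes separated young fasted from young refed fish with a difference at least as large as that of rank 150, but changed by 0.25 or more in old fish. The module is thus a band cut from a continuous cloud, as the plot of old against young differences shows.

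**Figure D1:**
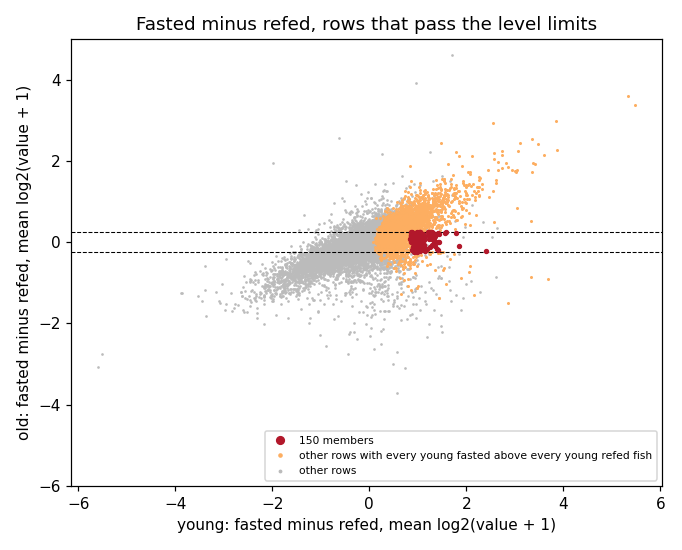
Difference between fasted and refed fish in old (vertical axis) and young fish (horizontal axis), each on mean log2(value + 1), 1 point per gene for the 14309 genes that pass the limits on level. Red points are the 150 members, orange points the other genes whose 4 young fasted fish all exceed the 4 young refed fish, grey points all others, and the dashed lines mark -0.25 and 0.25. The members form the right-hand edge of the band between the lines, from 0.85 to 2.41 in young fish.

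Old fish sat closer to the young fasted than to the young refed level in most members. The place of the old fish was expressed as a position, which is 0 at the mean of the young refed fish and 1 at the mean of the young fasted fish. The mean of the 8 old fish had a median position of 0.71 over the 150 members, with the middle of the members from 0.56 (lower quartile) to 0.91 (upper quartile) and extremes of -0.38 and 1.52. In 69 members the old fish were between the young levels (more than 0.25 from either), and in 60 they were at the young fasted level (within 0.25 of 1). In 8 they were above the fasted level, in 11 at the refed level (within 0.25 of 0) and in 2 under it. The position exceeded 0.5 in 117 members. A single high young fasted fish can change the class of a member. Rank 1, at the refed level (position 0.19), had a young difference of 2.41 with young fasted replicate 4 and 0.30 without it. The median position over the members was 0.73 when that fish was left out. These positions are on the deposited scale, and the median was 1.34 when fish were scaled to equal totals. Scaled to the synthetic spike-in RNAs it was 1.87, over the 98 members whose young difference stayed over 0.25 on that scale. The other members were left out of that median.

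**Figure D2:**
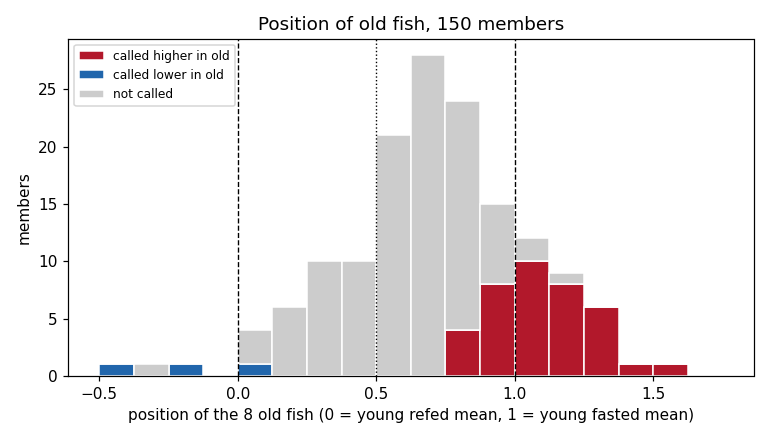
Number of members (vertical axis) by the position of the mean of the 8 old fish (horizontal axis), where 0 is the young refed and 1 the young fasted mean and the dotted line is the middle. Colours mark members called higher in old fish (38), called lower in old fish (3) and not called. Most members lie right of the middle, and all 38 called higher lie at 0.77 or above. A call as higher implies a position right of the middle.

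On the deposited scale, both feeding states of old fish departed from their young counterparts, and the refed state did so more. Old refed fish were above young refed fish by a median of 0.71 on the log2 scale, with 147 of 150 members above 0, whereas old fasted fish were below young fasted fish by a median difference of -0.25, with 119 of 150 below 0. A larger departure in refed than in fasted fish is the same statement as a position over 0.5. Over the 14309 genes the medians of these comparisons were 0.02 in fasted and 0.00 in refed fish. Because the young values of the members were chosen to lie far apart, part of either departure is built in, and neither was tested. These comparisons within a feeding state were not repeated on other scales, where the direction may differ. With equal totals the median position was 1.34, so in the median member the old fish were past the young fasted level.

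The rule did not choose on the mean of both old groups minus the mean of both young groups. Adding one amount to every old fish would change neither difference that made the choice. The young values enter this mean age difference as well as the choice, so an outlying young fish can move both. In rank 1, with such a fish among the young fasted, the mean age difference was -0.75 with a standard error of 0.97. This mean age difference was tested for all 18606 genes with limma on log2(value + 1), and a gene was called at an adjusted p under 0.05. On the deposited scale, 38 of the 150 members were called higher in old fish (25.3%) and 3 were called lower (2.00%). The shares over all genes were 11.6% called higher and 11.4% called lower, and over the 14309 genes of sufficient level they were 13.1% and 13.9%. Among the 1765 genes from which the members were taken, 269 (15.2%) were called higher and 86 (4.87%) lower. The remaining 109 members were not called, so that for them a position away from the middle was not detectable with 8 fish on each side. Without adjustment, 56 members were higher and 6 lower at p under 0.05 from limma. The share of all genes at that unadjusted threshold was not counted, so the shares above are no reference for these counts.

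The 38 members called higher had positions from 0.77 to 1.52 with a median of 1.09. Old fish were at the young fasted level in 30 of them and above it in 8. Their age differences ran from 0.25 to 1.15 with a median of 0.59. The position equals 0.5 plus the mean age difference divided by the young difference, so the call itself sets much of these classes. On the deposited scale, the mean of the old fish in these genes was about the young fasted level or above it. The 3 members called lower, of ranks 30, 36 and 99, had positions of -0.38, -0.17 and 0.04, about the young refed level or less. Their low positions follow from the call in the same way.

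The highest called age difference was that of ENSNFUG00015018531 (rank 12). It had 57.7, 238, 219 and 349 units in old fasted fish and 280.1, 127, 88.3 and 215 in old refed fish, against 109.6, 145, 129.6 and 109 in young fasted fish and 32.0, 31.2, 68.5 and 72.5 in young refed fish. Old fish scattered widely, and old fasted replicate 1 lay below young refed replicates 3 and 4. Its mean age difference was 1.15 (standard error 0.34, adjusted p = 0.0215 from limma), with a position of 1.35.

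ENSNFUG00015002536 (rank 41) was steadier. Old fasted fish had 273, 484, 554 and 488 units and old refed fish 445, 307, 513 and 417, while young fasted fish had 339, 320.3, 231 and 295 and young refed fish 156, 149.5, 178 and 86.0. Every old fish was above every young refed fish and above the lowest young fasted fish, and 6 of the 8 were above all young fish. The mean age difference was 1.07 (standard error 0.17, adjusted p = 0.000389 from limma), and the position of 1.49 puts the old fish past the young fasted level.

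The farthest position, 1.52, was that of the member of rank 115. Its signal was 545 ± 68.2 units in old fasted fish and 507 ± 110.4 in old refed fish, against 374 ± 45.0 in young fasted fish and 197 ± 28.8 in young refed fish (SD, n = 4 each). The mean age difference was 0.94 (standard error 0.10, adjusted p = 2.75e-05 from limma). All 8 old fish reached the lowest young fasted fish, as they did in 12 members in all. This count was made for the members only, so how common it is among other genes is not known here.

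In the other direction, ENSNFUG00015019323 (rank 30) had 37.9, 34.3, 40.2 and 32.7 units in old fasted fish and 38.9, 38.0, 45.6 and 41.0 in old refed fish. Young fasted fish had 95.4, 139, 120.4 and 141 units and young refed fish 66.2, 46.8, 43.3 and 58.6. The old fish formed a tight cluster in either feeding state, and all 8 were below every young refed fish but the lowest. Its mean age difference was -1.05 (standard error 0.11, adjusted p = 1.72e-05 from limma).

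ENSNFUG00015013892 (rank 36) followed the same course with more scatter. The values were 112, 84.3, 154 and 114 units in old fasted fish and 101.2, 102, 99.99 and 199 in old refed fish, against 392, 268, 248 and 278 in young fasted and 169.5, 230.0, 117 and 69.1 in young refed fish. No old fish came up to the lowest young fasted fish. The mean age difference of -0.75 (standard error 0.22, adjusted p = 0.0242 from limma) was no longer called when young fasted replicate 1 (adjusted p = 0.0510) or young refed replicate 1 (0.0505) was left out. Ranks 30 and 36 were the only members in which all 8 old fish stayed at or below the highest young refed fish.

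**Figure D3:**
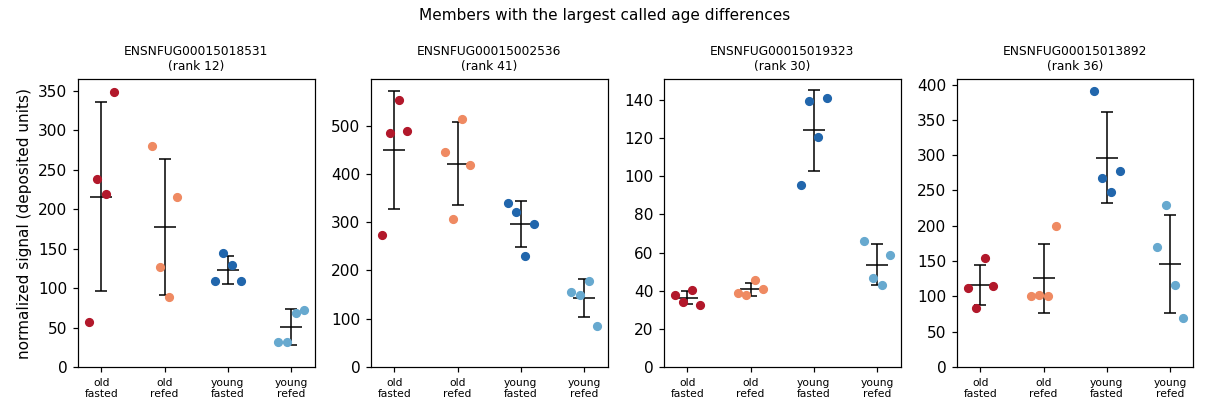
Normalized signal (vertical axes, starting at 0) of the 4 members named by identifier in old fasted, old refed, young fasted and young refed fish, 1 point per fish, with the mean and SD of each group of 4 in black. The left pair has old fish around or above the young fasted fish, and the right pair has none of them above the highest young refed fish.

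Members of intermediate position show what lying between looks like in single fish. For rank 67, whose position of 0.50 is the nearest to the middle, the old fasted fish had 332, 346, 431 and 187 units and the old refed fish 188, 263, 654 and 336. Young fasted fish spanned 423 to 465 and young refed fish 194 to 276. The old fish were thus spread over the whole range between the young groups and beyond it, and did not gather at the middle. Rank 50, with a position of 1.00, had old fish from 129 to 218 units over both states, overlapping the young fasted fish at 137 to 213 and all above the young refed fish at 74.2 to 85.7.

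Such scatter was common among the members. The counts that follow, like those of members with all 8 old fish on one side, were made for the members only. They have no share over other genes beside them. In 69 members some old fish reached the lowest young fasted fish while others stayed at or under the highest young refed fish, and in only 2 members did all 8 old fish lie strictly between the young groups. Of the 1200 values of old fish (150 members in 8 fish), 572 (47.7%) were at or above the lowest young fasted fish of that gene, 219 (18.3%) at or below the highest young refed fish and 409 (34.1%) between. The spread within groups was wide for old fish, with a median SD of log2 values of 0.26 in old fasted fish and 0.40 in old refed fish, against 0.19 in young fasted fish and 0.25 in young refed fish. Over the 14309 genes the medians were 0.15, 0.18, 0.15 and 0.18 in the same order of groups. The rule asked the young groups not to overlap and set no limit on the spread of old fish. It judged flatness on the means of old fish, so a single high old fish could help a gene to pass. The spread of old fish among the members is therefore not independent of the choice.

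**Figure D4:**
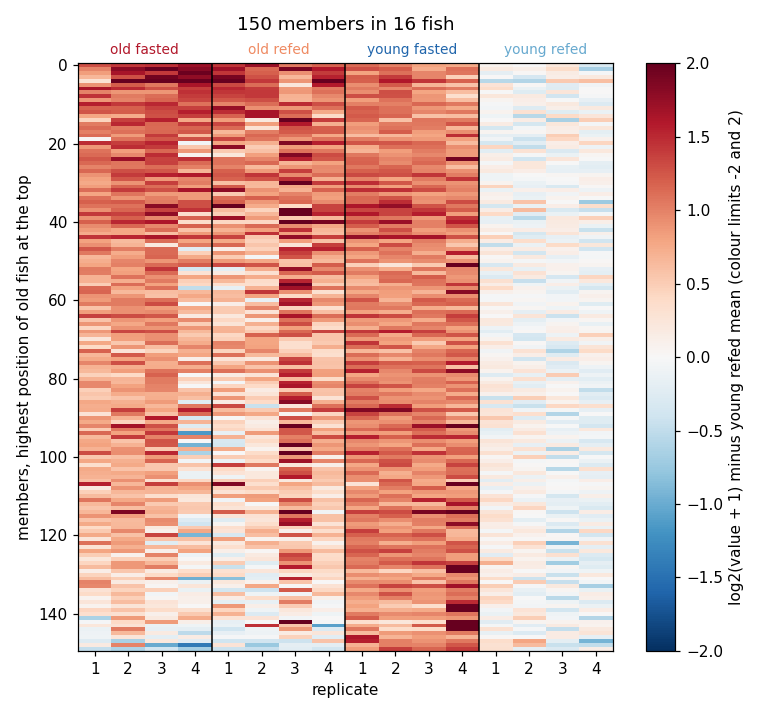
The 150 members (rows, ordered by the position of old fish with the highest at the top) in 16 fish (columns, by group and replicate), coloured by log2(value + 1) minus the young refed mean, with colours ending at -2 and 2. Old fasted replicate 4 and old refed replicates 1 and 2 are paler than their companions over many rows, old refed replicate 3 is darker, and young fasted replicate 4 stands out in a number of rows near the bottom.

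Old refed replicate 3 was the highest of its group over the module. Averaged over the members, the log2 values of old fasted fish stood 0.74, 0.89, 0.90 and 0.57 above the young refed mean and those of old refed fish 0.62, 0.56, 1.03 and 0.70, against 1.04, 1.02, 0.99 and 1.19 for young fasted fish. Old refed replicate 3 was within the range of the young fasted fish on this mean but under it by its median position, which was 0.95 against 0.97 to 1.03 in young fasted fish. It was the highest of the 4 old refed fish in 81 of 150 members, and in 25.4% of the 14309 genes. The rule used the values of old refed fish to judge flatness, so this count is a description.

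The flatness depended on which old fish were counted. Without old refed replicate 3, 98 of the 150 members kept an old difference under 0.25, while 47 were higher in old fasted fish by 0.25 or more and 5 lower by as much. Leaving out another old fish left 104 (old refed replicate 1) to 133 members flat (old fasted replicate 2), and since all members were chosen as flat, leaving out any old fish could only lower the count. The count of age calls moved less, with 34 to 44 members called higher in old fish when any 1 of the 16 fish was left out. The share of all genes called higher was then 9.42% to 12.0%. In the other direction, 1 member was called lower without young refed replicate 1 and 5 without old fasted replicate 2. Of all genes, 10.2% and 10.6% were called lower in these fits.

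A single fish also made the top of the ranking. The member of rank 1 had 294, 396, 544 and 326 units in old fasted fish and 267, 298, 1690 and 291 in old refed fish. Young fasted replicates 1, 2 and 3 had 378, 352 and 380 units and replicate 4 had 127441, against 256 to 319 in young refed fish. Without young fasted replicate 4 its young difference was 0.30 instead of 2.41. Rank 3 was alike, with 272, 499 and 385 units in the other young fasted fish and 6921 in replicate 4. In 11 members the young difference fell by more than 0.25 once the highest young fasted fish was left out, to values from 0.30 to 1.53, and in all 11 that fish was replicate 4. In the other members the fall was 0.25 or less. Rank 4, for example, had 187 to 219 units in old fasted fish and 102 to 239 in old refed fish, against 237, 219, 223 and 171 in young fasted fish and 97.3, 58.9, 61.9 and 66.6 in young refed fish. It was called higher in old fish (0.59, standard error 0.15, adjusted p = 0.0103 from limma).

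How far the young levels depend on having chosen the members was measured by choosing 150 genes again without each fish in turn and placing the omitted fish among them. Omitted old fasted fish had median positions of 0.71, 0.86, 0.92 and 0.62 and omitted old refed fish 0.48, 0.47, 0.82 and 0.63. Omitted young fasted fish were at 0.84 to 0.96 and omitted young refed fish at 0.05 to 0.19, so the contrast in young fish was smaller, but still present, in animals that had no part in the choice. All 8 old fish were above all 4 young refed fish on this measure, and 2 of the 8 (old fasted replicates 2 and 3) overlapped the range of the young fasted fish. The lists chosen without a fish shared 97 to 137 of their 150 genes with the module, the fewest without old refed replicate 3.

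**Figure D5:**
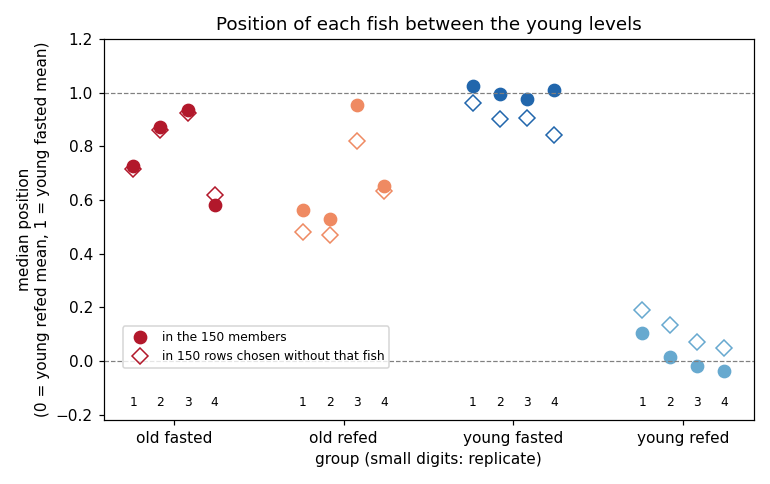
Median position of each of the 16 fish (vertical axis, 0 is the young refed and 1 the young fasted mean) by group, with the replicate as a small digit. Filled circles use the 150 members, and open diamonds use 150 genes chosen without the fish shown. Old fish lie between 0.47 and 0.93 on either measure but for old refed replicate 3, whose filled circle is at 0.95, and no old fish comes down to the young refed fish.

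The members did not move as one block within groups. Over the 11175 pairs of members, the deviations of the 16 fish from their group means had a median correlation of 0.09, with 16.5% of pairs over 0.5 and 6.80% under -0.5. These correlations rest on 16 libraries that all pairs share, and none were computed over other genes. In the 81 members with old refed replicate 3 highest, old fasted replicate 4 and old refed replicates 1 and 2 had median positions of 0.28, 0.32 and 0.34. In the other 69 members these fish were at 0.80, 0.91 and 0.75. The 81 held 44 of the 47 members that were higher in old fasted fish by 0.25 or more without old refed replicate 3. They were picked on that fish, so these values are descriptions.

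The mirror image of the module leaned the same way on the deposited scale. Of 1540 genes with every young refed fish above every young fasted fish and an old difference under 0.25, the 150 with the largest contrast had old fish at a median position of 0.69 on the same scale, and 120 of the 150 had a position over 0.5. On this scale, old fish were therefore nearer to the young fasted level also in genes that young fish held lower in the fast. Scaling all old fish up raises positions in the module and lowers them in the mirror set, so the shared lean depends on the scale. The age difference of the median gene was 0.51 with equal totals and 0.31 with the spike-ins. The mirror set was not placed on those scales, and whether it leans the same way there is not known here. The module had 38 genes called higher and 3 lower in old fish, and the mirror set had 5 higher and 62 lower. Over all genes the shares were 11.6% higher and 11.4% lower. Both sets were drawn from the same 16 fish and share all young samples. Genes separated in young fish that also rose in old fasted fish by 0.25 or more (1843 genes) had a median position of 0.53, and the 1765 flat candidates 0.55.

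The genes that the study discusses are not members. Their rows were found by comparing each gene's z-scores in young fish with those the study lists. The row of smad2, a transducer of TGFβ signaling, met the conditions on young separation and on flatness (old difference 0.23) but had a young difference of 0.53, short of rank 150, and its old fish had a position of 0.33. The partner smad4 and the transducer smad3b had young differences of 0.79 and 1.27. Their old differences were 0.60 and 0.79, past the limit of 0.25, with old fish at positions of 0.26 and 0.54. For tfeb, a transcription factor of lysosomal genes, the young difference was 0.53 with overlapping young groups, and the old difference was 0.17. Its old fish had a position of 1.75, past the young fasted level. The mean age difference was 0.66 (standard error 0.13, adjusted p = 0.00172 from limma). That p compares old with young fish over both feeding states and does not test old fish against the young fasted level.

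Flatness in old fish is a statement about the deposited scale. Units per fish summed to 19.0 to 21.3 M in old fasted, 14.3 to 17.0 M in old refed, 24.5 to 28.3 M in young fasted and 21.0 to 26.6 M in young refed fish, while medians were 155 to 168. The mean log2 level of the ERCC spike-ins (synthetic RNAs put in as an outside standard) was 11.05 to 11.21 in old fasted fish, 10.39 to 10.58 in old refed fish, 11.30 to 11.57 in young fasted fish and 10.59 to 10.92 in young refed fish. Scaled to the spike-ins, the difference between fasted and refed old fish had a median of -0.67 over all genes and all 150 members were lower in old fasted fish by 0.25 or more, with 0 flat. Scaled to equal totals, the median over all genes was -0.38 and 63 members were flat. Relative to the median gene on either scale, 119 and 120 members were flat and the median position was 0.67 on both. Before this centring it was 1.34 with equal totals. With the spike-ins it was 1.87, over only the 98 members whose young difference was over 0.25. The age calls moved with the scale as well, to 97 members called higher and 1 lower with the spike-ins, where 53.5% of all genes were called higher. With equal totals 119 were called higher and 1 lower, where 79.0% of all genes were called higher. The share of the members called higher was then about that of all genes, so the excess seen on the deposited scale was absent with equal totals. With the spike-ins the share of the members, 97 of 150, stayed above the 53.5% of all genes. Relative to the median gene, 35 members were called higher and 4 lower on either scale. Of all genes, 9.36% were then called higher and 14.09% lower with the spike-ins, and 9.28% and 14.04% with equal totals. After this centring the share of the members called higher, 35 of 150, was above that of all genes on both scales. Centring on the median takes out the scale factor of each fish, so the centred scales differ only through the 1 added before the logarithm. Their agreement in calls, flatness and position was thus fixed in advance and is no second check. The deposited medians were already close, so the centred values are also near the deposited scale. The young difference depended on the scale too. With the spike-ins its median over the members was 0.28 and its lowest value 0.13, with 98 of the 150 over 0.25, while the median over all genes was -0.60. With equal totals its median over the members was 0.83. Whether equal amounts of spike-in were added was not tested. The values are not read numbers, so the reads behind each of them could not be worked out.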

How the data were processed

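RNA-seq of adipose tissue from 16 killifish, 4 in each of 4 groups, was analysed. The authors removed reads of rRNA and tRNA, pseudo-aligned the others to Nfu_20140520 with kallisto 0.45.0 and compared groups with DESeq2 1.24.0 (tools per the submitters' processing notes). What the authors deposited is 1 normalized signal value for each gene and fish, with a scaling not given in the sources used here. Low values fell within 0.1 of a whole multiple of a step in only 68.7% to 83.1% of cases per fish, so reads were not recovered, no count test was run and no counting interval is given.

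The 74 spike-in rows were left out of all tests. Columns were assigned to fish by name. Groups were compared by a fit of log2(value + 1) with limma 3.58.1 in R 4.3.3 (eBayes with trend, 16 fish, 4 group means), the contrast being the mean age difference, with Benjamini-Hochberg adjustment over 18606 genes. On simulated data of 18606 genes this contrast recovered 61% of changes of 0.5 and 90% of changes of 1. The simulated noise was normal with each gene's own SD pooled over the groups, and the changed genes were a small random part of all genes. The members had a wider spread and single outlying fish, so these rates do not describe them. Scripts used Python 3.11.15, numpy 2.4.6, pandas 2.3.3, scipy 1.17.1 and matplotlib 3.10.9.

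The members, lists and alternatives were chosen with earlier results of these data known. Members named by identifier are those with the highest and the lowest called age difference, 2 each. Ranks 1, 50, 67, 83, 99 and 150 follow from the rule (the first and last rank, the member nearest to the limit in old fish and those with positions nearest to 0, 0.5 and 1), and ranks 2, 3, 4 and 115 were added after their values had been seen. Lists of pathway and cell type genes need symbols and were not applied. No sequence is printed, since none was matched to these identifiers. The replicate numbers name different fish, and the deviations of same-numbered fish correlated over 0.1 in 3 of 24 pairs (-0.28 to 0.23), so they were not treated as pairs. Alternatives covered the scaling, the pseudocount, filters, a replicate block and each fish left out.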

Additional observations from a re-analysis of the deposited data

Results flagged for a closer look

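Of 56 groups of 4 values looked at, taken from 12 members and from each fish's mean and median over the module, 8 had a fish apart from the other 3 by Dixon's gap ratio at the 95% critical value, which chance gives in about 1 of 20 groups. That rate is no reference here, because ranks 1 to 3 were looked at for their large differences in young fish and hold 5 of the 8. The member of rank 1 had 3 of them. Young fasted replicate 4 stood at 127441 units, old refed replicate 3 at 1690 and, at the low end, young refed replicate 1 at 256. Young fasted replicate 4 also stood apart in rank 3, at 6921 units. In rank 2, old fasted replicate 2 had 283 units where the other old fasted fish had 111 to 129. In rank 36, old refed replicate 4 had 199 units against 99.99 to 102 in the other old refed fish. In rank 83, old fasted replicate 4 had 100.4 units against 196 to 216. In rank 99, young fasted replicate 1 had 333 units against 173 to 191.

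Over all 150 members, young fasted replicate 4 stood apart as the highest of its group in 10 (6.67%) and old refed replicate 3 in 6 (4.00%), where the shares over the 14309 genes were 2.59% and 1.2%. The rule ranked genes on the mean of the young fasted fish and judged flatness on the old fish, so a single high fish could help a gene to become a member, and these shares are descriptions.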

How the results depend on the processing

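Scaling to equal totals gave 119 members called higher and 1 lower in old fish, 63 flat members, 26 members found again by the rule and a median position of 1.34. Scaling to the spike-ins gave 97, 1, 0, 0 and 1.87. The last of these is over the 98 members with a young difference over 0.25 on that scale. On these scales 79.0% and 53.5% of all genes were called higher in old fish. With equal totals the share of the members was thus about that of all genes, and with the spike-ins it was above it. The age difference of the median gene was 0.51 and 0.31 on these scales. The age difference of ENSNFUG00015013892 was then not called by limma (-0.25, adjusted p = 0.292, and -0.45, adjusted p = 0.0690). With each fish left out in turn, 34 to 44 members were called higher and 1 to 5 lower. The shares of all genes were then 9.42% to 12.0% higher and 9.31% to 11.3% lower. Of the members, 98 to 133 were flat when an old fish was left out. Leaving out a young fish cannot change flatness in old fish, so all 150 stayed flat there. With any fish left out, 97 to 137 were found again, and the median position was 0.67 to 0.78. The rule was also sensitive to its own limits, with 91 members found again at a minimum mean of 100, 86 with a limit of 0.15 in old fish and 89 with group medians in place of means. Without both young fasted replicate 4 and old refed replicate 3, 98 members were flat and 79 were found again. There 38 were called higher and 2 lower, against 10.7% and 9.53% of all genes, and ENSNFUG00015013892 was not called (adjusted p = 0.0596 from limma). That setting and the group medians were chosen after seeing the data. With the replicate number as a block, 36 members were called higher and 3 lower, against 10.4% and 10.3% of all genes. Of the combinations of a setting with one of these counts or the position, 19 moved and 121 did not. A count was taken to move when it changed by over 1.5 times, and the position when it changed by more than the spread between old fish. The 121 include flatness without each young fish, which could not change, and counts already given above. They also include both settings relative to the median gene, which are almost the same. The limit is wide, since 104 flat members without old refed replicate 1 did not pass it. The causes were not tested.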
